A study of Mus musculus with 12 samples.

Results

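Ccr7, Fscn1, Ccl22, Ccl17, Il12b, Cd83, Socs2 and Cd200 are genes that dendritic cells switch on as they mature and leave a tissue. They were chosen by name, and each of the 8 stood on 1 line of the count table (of 33018 lines) and on 1 line of the TPM table. RNA came from 12 MC38/hPD-L1 tumors, taken 72 h after a single intraperitoneal dose, with 4 tumors in each of 3 groups. MC38 is a mouse colorectal adenocarcinoma line, here made to carry human PD-L1, and grew in C57BL6 mice (the substrain is C57BL/6NJ in the study's methods). One group received ALPN-202, a variant CD80 domain joined to an Fc that blocks PD-L1 and CTLA-4 and gives CD28 costimulation where PD-L1 is bound. The second group received anti-PD-L1 (durvalumab, an antibody to human PD-L1), and the last received an Fc control. Human PD-L1 was thus present in all 3 groups, on the implanted cells only. The comparisons ask how each agent, and each against the other, changed the tumor transcriptome.

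Conventional dendritic cells that have taken up antigen mature, whether by a microbial signal or in steady state, and turn from capture to migration. They then express CCR7, the chemokine receptor that guides them along CCL19 and CCL21 into lymphatics and lymph nodes, together with costimulatory molecules, cytokines such as IL-12 and the CCR4 ligands CCL17 and CCL22. In tumors such cells also carry regulatory molecules, among them PD-L1 and CD200, and are known as mature regulatory or LAMP3+ dendritic cells. Several of the 8 genes are made by other cells too. CCR7 is also the homing receptor of naive and central memory T cells. Fascin, the actin bundling protein encoded by Fscn1, is made by many carcinoma cells, CD83 by activated lymphocytes and macrophages, CD200 by endothelium and neurons, and SOCS2 wherever STAT5 is active.

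In the NCBIM37 build used for the counts, none of the 8 genes shares an exon with another annotated gene. Ccl22 (chr8:97269490-97275599) and Ccl17 (chr8:97334353-97335935), both on the plus strand, belong to the same chemokine cluster. Ccr7 (chr11:99005510-99016391, minus strand) and Il12b (chr11:44213565-44227535, plus strand) share chromosome 11, while Fscn1 is on chromosome 5, Cd83 on 13, Socs2 on 10 and Cd200 on 16. RefSeq promoter sequence on GRCm38.p6 was matched by symbol for 5 of the 8, namely Fscn1, Ccl22, Ccl17, Il12b and Cd200. The 250 bases before the start are shown for the 3 secreted products and for Fscn1, whose level stood far above theirs, with a match to TATAAA in capitals.
Ccl22 (chr8:94745434-94745683, + strand): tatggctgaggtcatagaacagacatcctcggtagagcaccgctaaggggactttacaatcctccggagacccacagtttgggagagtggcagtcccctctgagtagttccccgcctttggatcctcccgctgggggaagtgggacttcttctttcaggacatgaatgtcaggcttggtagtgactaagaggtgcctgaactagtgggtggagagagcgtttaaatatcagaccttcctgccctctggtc
Ccl17 (chr8:94810203-94810452, + strand): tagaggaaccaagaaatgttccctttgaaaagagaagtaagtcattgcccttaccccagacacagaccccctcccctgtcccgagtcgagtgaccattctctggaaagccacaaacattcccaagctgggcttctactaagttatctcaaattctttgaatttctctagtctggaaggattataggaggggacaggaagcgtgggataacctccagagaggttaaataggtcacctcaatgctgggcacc
Il12b (chr11:44399813-44400062, + strand): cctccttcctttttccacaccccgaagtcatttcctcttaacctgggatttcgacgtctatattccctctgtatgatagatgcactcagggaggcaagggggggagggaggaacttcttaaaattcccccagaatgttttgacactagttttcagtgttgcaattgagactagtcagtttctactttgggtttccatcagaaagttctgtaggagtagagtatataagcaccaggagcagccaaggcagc
Fscn1 (chr5:142960105-142960354, + strand): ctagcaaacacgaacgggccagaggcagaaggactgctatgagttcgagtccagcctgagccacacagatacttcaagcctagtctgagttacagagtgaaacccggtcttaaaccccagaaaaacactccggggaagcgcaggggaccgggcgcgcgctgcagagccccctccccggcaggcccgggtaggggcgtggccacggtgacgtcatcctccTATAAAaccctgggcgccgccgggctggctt
TATAAA, looked for on both strands, stood in 1 of the 5 member promoters (Fscn1, its first base 31 bases before the start) and in 13.0% of 27025 promoters of the same length. The NF-kB consensus stood in none of the 5 and in 7.01% of all promoters. TGANTCA, the AP-1 motif, likewise stood in none of the 5 and in 6.87% of all promoters, both strands searched and neither motif overlapping TATAAA. The Fscn1 window held 62.4% G and C, the Ccl22 window 53.6%, the Ccl17 window 47.6%, the Il12b window 46.0% and the Cd200 window 42.4%, against a median of 52% over all promoters. These matches describe the letters of these windows only.

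Total counts ran from 3988266 to 10692817 per tumor. Fc control 1 and ALPN-202 4 stood apart from the other 10 libraries by gene length, with short genes high and long genes low (short genes shifted by 0.873 and 1.30 on the log2 scale, against -0.193 to 0.16 elsewhere). Adipocyte genes were high in 4 tumors (Fc control 4, ALPN-202 4, anti-PD-L1 2 and anti-PD-L1 4), whose summed TPM over 8 such genes was 1932 to 14210, against 95.8 to 304.4 in the other 8. Member results whose call or direction turned on these libraries are given with and without them. ALPN-202 4 was also the lowest of its group for T cell and macrophage genes. Summed TPM was 112.2 for T cell genes, against 268.8 to 389.9 in ALPN-202 1 to 3 and 54.88 to 104.9 in the Fc control. For macrophage genes it was 3138, against 8179 to 9127 and 3935 to 6159. The paper describes an animal of the same treatment group without raised immune markers, and speculates that it may not have been fully dosed. Whether ALPN-202 4 came from that animal was not tested. Of the 8 genes, 7 passed the expression filter and were tested among 14142 genes with edgeR's quasi-likelihood test. Ccl17 did not pass, and its estimates come from a fit with no filter. With Benjamini-Hochberg adjustment over all genes tested, edgeR called no gene in any of the 3 comparisons (0% of genes tested), and at an unadjusted p under 0.05 it passed 1298, 292 and 1315 genes for ALPN-202 versus Fc control, anti-PD-L1 versus Fc control and ALPN-202 versus anti-PD-L1. DESeq2 called 232, 0 and 202 genes and limma-voom 0 in each, with no member among the calls of either. Bulk RNA cannot tell fewer cells of a type from less RNA per cell.

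The 8 genes differed widely in level. In TPM, a length-corrected transcript level on a scale that sums alike in each tumor, the Fc control mean was 283 ± 113 (SD, n = 4) for Fscn1, 22.4 ± 9.56 for Cd83 and 11.4 ± 1.76 for Cd200. It was 4.18 ± 1.26 for Ccr7, 3.97 ± 2.4 for Ccl22, 2.95 ± 0.917 for Socs2, 2.38 ± 1.90 for Ccl17 and 0.650 ± 0.417 for Il12b. Fscn1 stood clear of the rest, the ranges of Cd83 and Cd200 overlapped, and the TPM ranges of Ccr7, Ccl22, Socs2 and Ccl17 overlapped with one another. Fscn1 had 23.6 to 98.2 times the TPM of Ccr7 in the same tumor, and which cells made it was not tested. Lamp3, a membrane protein that defines mature dendritic cells, was at 0.811 ± 0.165 TPM in the Fc control, 0.857 ± 0.424 with ALPN-202 and 0.491 ± 0.136 with anti-PD-L1. Ccl19, a CCR7 ligand that mature dendritic cells also make, was listed at 0 in all 12 tumors, and near-identical gene copies can lose reads in counting. The set of genes is therefore named here by its members, and no member's level is taken as a count of dendritic cells.

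**Figure D1:**
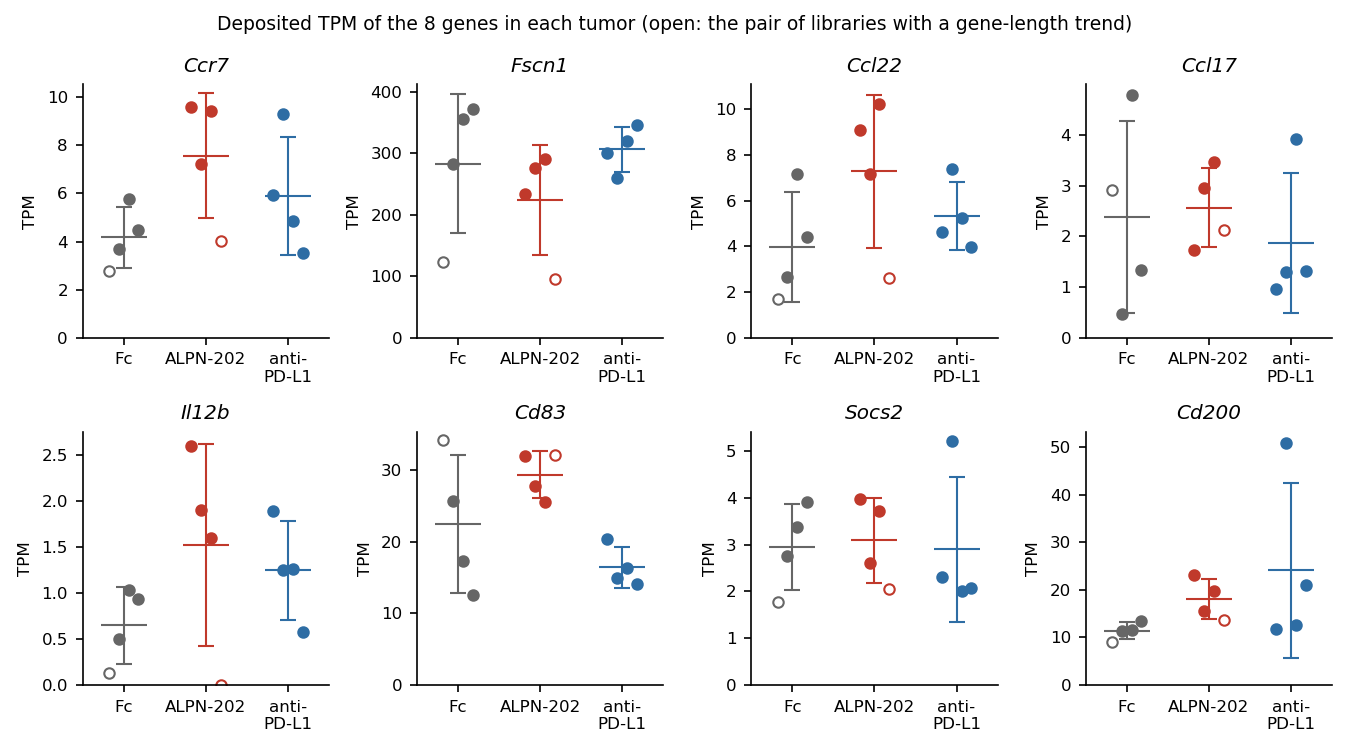
Deposited TPM (vertical axis, from 0, its own scale for each gene) of the 8 genes in each of the 12 tumors, by group. Points are tumors, horizontal bars are group means, error bars are SD (n = 4), and open points are Fc control 1 and ALPN-202 4. The Ccr7 and Ccl22 points of 3 ALPN-202 tumors stand at or above every Fc control tumor while ALPN-202 4 lies among the controls, and anti-PD-L1 2 stands alone for Cd200 at 51.0 TPM.

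Ccr7, the homing receptor of migratory dendritic cells and of naive and central memory T cells, was 1.98-fold as high with ALPN-202 as with the Fc control. Ccl22, a chemokine that draws CCR4-bearing T cells such as regulatory T cells, was higher by a like amount. Of the 7 members tested, these were the 2 with an unadjusted p under 0.05, both higher, where 7.2% of all genes tested were higher at that p and 9.18% passed in either direction. Neither passed adjustment over all genes. Without Fc control 1 the count of members at that p was 4, of which 3 were higher and Fscn1 lower, where 12.1% of all genes tested passed and 7.75% were higher. Without both libraries with a length trend it was 5, of which 4 were higher and Fscn1 lower, where 25.9% of all genes passed and 14.3% were higher. Without the 4 tumors high in adipocyte genes it was 4, all higher, where 22.7% passed and 13.0% were higher. T cell genes were positive in 11 of 11 tested in this comparison (median log2 fold change 1.84), and their part in the Ccr7 value was not tested. The median log2 fold change of the 7 members was 0.81, against 0.04 over all genes tested, and 6 of 7 were positive (56.1% of all genes).

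Ccr7 was at 2.78, 3.71, 5.75 and 4.48 TPM in Fc control tumors 1 to 4. It was at 9.59, 7.24, 9.43 and 4.04 TPM in ALPN-202 tumors 1 to 4. Hence 3 of 4 ALPN-202 tumors lay above every control, and ALPN-202 4, the shallowest library (22 reads for Ccr7), lay within them. The log2 fold change was 0.98 (SE 0.31, a 1.98-fold level with a 95% interval of 1.24 to 3.16), with an unadjusted p of 0.00806 and a Benjamini-Hochberg adjusted p of 0.35 in edgeR. On TPM the exact two-sided permutation test gave p = 0.0857 (n = 4 per group). On CPM, counts scaled to library size by TMM, ALPN-202 4 was less reduced (7.17). There the ALPN-202 tumors (6.28 to 8.79) did not overlap with the controls (3.46 to 4.38). The exact permutation p on CPM was 0.0286, the smallest that 4 against 4 allows. How many of all genes did not overlap on CPM was not counted. Without Fc control 1 and ALPN-202 4 the log2 fold change was 0.97 (unadjusted p = 0.0213 in edgeR), and without the 4 tumors high in adipocyte genes it was 1.00 (unadjusted p = 0.00319).

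Ccl22 was at 1.69, 2.65, 7.15 and 4.41 TPM in the Fc control and at 9.09, 7.15, 10.2 and 2.62 TPM with ALPN-202. As for Ccr7, ALPN-202 4 was the low tumor of its group, and ALPN-202 2 stood level with the highest control. The log2 fold change was 1.01 (SE 0.35, a 2.01-fold level with a 95% interval of 1.19 to 3.41), with an unadjusted p of 0.0136 and an adjusted p of 0.386 in edgeR. Its exact permutation p on TPM was 0.171, and on CPM it was 0.0571 (n = 4 per group). Ccl17, which encodes the other CCR4 ligand and lies in the same chemokine cluster as Ccl22, had 1 to 11 reads in any tumor. Its TPM was 2.92, 0.477, 4.78 and 1.33 in the Fc control and 1.73, 2.96, 3.46 and 2.12 with ALPN-202, which lay wholly within the control range. Its log2 fold change of 0.20 (SE 0.66, 95% interval -1.21 to 1.61, from the fit with no filter) neither shows nor excludes a change of the size seen for Ccl22.

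Il12b encodes the p40 chain shared by IL-12 and IL-23. It had 1, 4, 9 and 8 reads in the Fc control and 17, 17, 14 and 0 with ALPN-202. That is 0.129, 0.503, 1.03 and 0.935 TPM against 2.59, 1.90, 1.60 and 0 TPM. Hence 3 ALPN-202 tumors exceeded every control, and ALPN-202 4 had no read, which at its depth allows up to 0.560 TPM (3 reads, counting error only). The log2 fold change was 1.30 (SE 0.65), with an unadjusted p of 0.0694 and an adjusted p of 0.614 in edgeR. Without Fc control 1 and ALPN-202 4 it was 1.33 with an unadjusted p of 0.0178, without ALPN-202 4 alone 1.58 (unadjusted p = 0.00931), and without the 4 tumors high in adipocyte genes 1.75 (unadjusted p = 0.00783). At such low counts the 95% interval of the level ran from 0.920-fold to 6.56-fold. Il12a, the p35 chain that IL-12 needs besides p40, was too low to test and listed at 0 TPM in 7 of 12 tumors, and Il23a, the p19 chain of IL-23, in 4 of 12.

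Cd200, a membrane glycoprotein that restrains myeloid cells through CD200R, was the 1 member whose TPM did not overlap between ALPN-202 and the Fc control, where 1.04% of genes tested were higher without overlap, 3.38% were lower without overlap and 4.43% did not overlap in either direction. The controls were at 9.15, 11.5, 11.6 and 13.5 TPM and the ALPN-202 tumors at 23.2, 15.5, 19.7 and 13.8. The gap between the groups was narrow, since the lowest ALPN-202 tumor was at 13.77 and the highest control at 13.45 TPM. The exact permutation p was 0.0286 on TPM (n = 4 per group), again the smallest possible. Without ALPN-202 4 (3 against 4 tumors) 4 of the 8 members were without overlap, all higher, where 23.3% of genes tested did not overlap and 14.5% were higher. In edgeR the log2 fold change was 0.81 (SE 0.43), with an unadjusted p of 0.0843 and an adjusted p of 0.653. In a fit of the 8 compared tumors alone, without the widely spread anti-PD-L1 tumors, it was 0.82 with an unadjusted p of 0.00644 and an adjusted p of 0.414. Without the 4 tumors high in adipocyte genes it was 0.72 (unadjusted p = 0.00954, adjusted p = 0.12 in edgeR).

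For Cd83, Socs2 and Fscn1 the difference from the Fc control was within the spread between tumors when all 12 tumors were fitted. Cd83, a costimulatory surface protein of mature dendritic cells, was at 34.2, 25.7, 17.3 and 12.5 TPM in the control and at 32.0, 27.7, 25.5 and 32.1 TPM with ALPN-202. The ALPN-202 tumors were close together inside the wide control range. Its log2 fold change was 0.50 (SE 0.43, adjusted p = 0.924 in edgeR), which was 1.03 without Fc control 1 (unadjusted p = 0.0172), 0.65 without both libraries with a length trend (unadjusted p = 0.0347) and -0.11 without the 4 tumors high in adipocyte genes. Socs2, a feedback inhibitor of STAT5 signalling, was at 1.77, 2.77, 3.36 and 3.91 TPM in the control and at 3.98, 2.61, 3.71 and 2.05 TPM with ALPN-202, and the groups overlapped throughout. Its log2 fold change was 0.23 (SE 0.35, 95% interval -0.54 to 0.99). Fscn1 was at 123, 282, 355 and 372 TPM in the control and at 234, 276, 291 and 95.3 TPM with ALPN-202, the low tumor of each group being the library with a length trend. Its log2 fold change was -0.21 (SE 0.21, adjusted p = 0.967 in edgeR). It was -0.40 without Fc control 1 (unadjusted p = 0.0314), -0.29 without both libraries with a length trend (unadjusted p = 0.025, adjusted p = 0.131) and 0.02 without the 4 tumors high in adipocyte genes.

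The TPM ratio of Fscn1 to Ccr7 within a tumor, looked at after the values were seen and given with no test, was 44.4, 75.9, 61.7 and 83.0 in the Fc control. It was 24.4, 38.1, 30.8 and 23.6 with ALPN-202 and 50.7, 27.9, 65.9 and 98.2 with anti-PD-L1. Every ALPN-202 tumor was below every control, and anti-PD-L1 2 was the tumor of its group that fell among the ALPN-202 values.

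**Figure D2:**
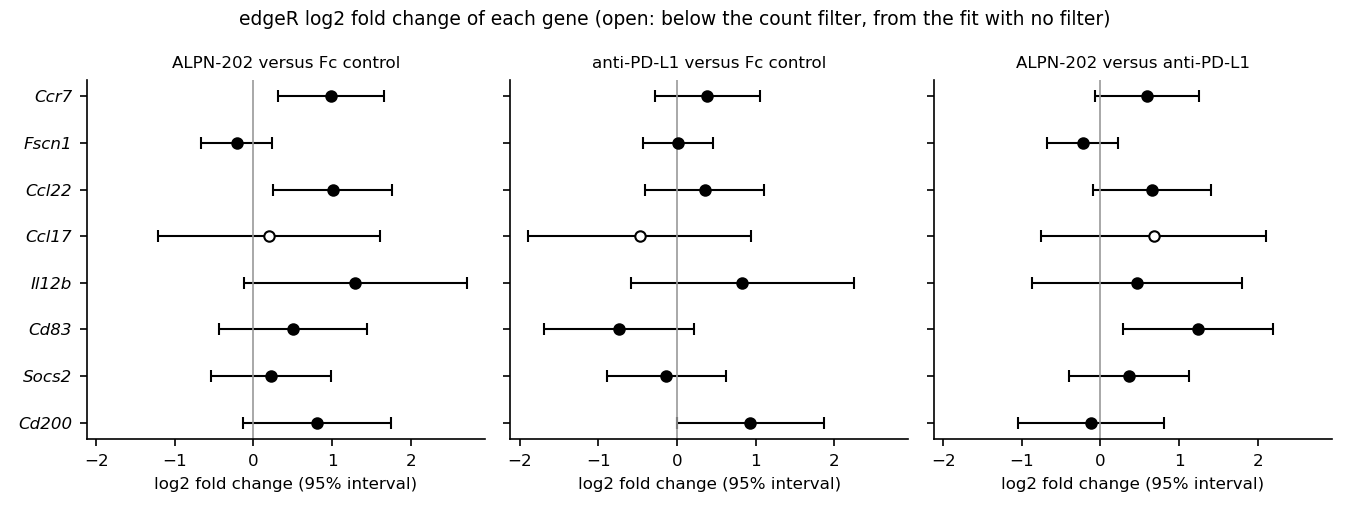
edgeR log2 fold change (horizontal axis) of each gene in the 3 comparisons. Points are estimates, bars are 95% intervals, and the open point is Ccl17, from the fit with no filter. The intervals clear 0 for Ccr7 and Ccl22 in ALPN-202 versus Fc control and for Cd83 in ALPN-202 versus anti-PD-L1, where the points lie at 0.98, 1.01 and 1.24.

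With anti-PD-L1 most tumors lay within the control range of most members. None of the 7 members tested had an unadjusted p under 0.05 against the Fc control, where 2.06% of genes tested did (1.44% higher and 0.629% lower), and none was without overlap on TPM (1.85% of genes). Each of these counts was at most 1 when any single tumor was left out. This comparison shares its 4 control tumors with the preceding one. The median log2 fold change of the members was 0.35, against -0.03 over all genes tested, and 5 of 7 were positive (47.1% of all genes). Ccr7 was at 5.93, 9.29, 4.86 and 3.52 TPM and Ccl22 at 4.63, 7.39, 5.24 and 3.96 TPM, so that anti-PD-L1 2 was high for both and the others lay largely among the controls. Their log2 fold changes were 0.39 (SE 0.31) for Ccr7 and 0.35 (SE 0.35) for Ccl22.

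Cd200 came closest to the threshold with anti-PD-L1, through single tumors. It was at 11.8, 51.0, 12.7 and 21.1 TPM, with anti-PD-L1 1 and 3 inside the control range. The log2 fold change was 0.94 (SE 0.43, unadjusted p = 0.0503 in edgeR), and -0.01 without the 4 tumors high in adipocyte genes. The high tumors, anti-PD-L1 2 and 4, were those with 14210 and 3493 summed TPM of the 8 adipocyte genes, against 276.5 and 95.8 in anti-PD-L1 1 and 3. All 8 adipocyte genes had positive log2 fold changes in this comparison (median 2.98). Endothelial genes, whose cells also make CD200, were at 313.6 summed TPM in anti-PD-L1 2, against 124 to 140.8 in the other 3 tumors of the group and 43.4 to 155.9 in the Fc control. They were positive in 9 of 9 tested (median log2 fold change 0.64). The part of these cells in the Cd200 value was not tested. Il12b was at 1.89, 1.25, 1.26 and 0.578 TPM (15, 11, 11 and 5 reads), above every control in 3 of 4 tumors, with a log2 fold change of 0.83 (SE 0.65), which was 1.35 without the 4 tumors high in adipocyte genes (unadjusted p = 0.0415, adjusted p = 0.841 in edgeR). Cd83 was at 20.4, 14.9, 16.3 and 14.0 TPM, inside the control range, with a log2 fold change of -0.74 (SE 0.44) that was -0.18 without Fc control 1 and ALPN-202 4. Socs2 (2.30, 5.21, 2.00 and 2.07 TPM), Fscn1 (301, 259, 320.2 and 346 TPM) and Ccl17 (0.953, 1.29, 3.92 and 1.31 TPM) had log2 fold changes of -0.13, 0.01 and -0.47. For Socs2 it was -0.63 without anti-PD-L1 2 (unadjusted p = 0.027).

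Set directly against each other, ALPN-202 and anti-PD-L1 differed most, among the members in the fit of all 12 tumors, for Cd83. The ALPN-202 tumors held 25.5 to 32.1 TPM and the anti-PD-L1 tumors 14.0 to 20.4, so the groups did not overlap (exact permutation p = 0.0286, n = 4 per group), as was so for 7.5% of genes tested and, with ALPN-202 higher, for 1.38% (lower, for 6.12%). In edgeR the log2 fold change was 1.24 (SE 0.44, a 2.37-fold level with a 95% interval of 1.22 to 4.60), with an unadjusted p of 0.0155 and an adjusted p of 0.371. Cd83 was the 1 member of 7 at an unadjusted p under 0.05, where 9.3% of genes tested passed, 6.82% higher and 2.47% lower. Without ALPN-202 4, which had the highest Cd83 CPM of all (62.3), the log2 fold change was 0.85 (unadjusted p = 0.0558), and without the 4 tumors high in adipocyte genes it was 0.68 (unadjusted p = 0.155), below Ccl22 (0.89), Ccr7 (0.75), Cd200 (0.73) and Socs2 (0.72). Without both libraries with a length trend it was 0.83 (unadjusted p = 0.00677, adjusted p = 0.0834 in edgeR). Over the 25 alternatives its adjusted p ran from 0.0834 to 0.889.

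The other members lay between, with overlap. Ccr7 had a log2 fold change of 0.59 (SE 0.30, 95% interval -0.07 to 1.26) and Ccl22 of 0.65 (SE 0.34, 95% interval -0.10 to 1.41) for ALPN-202 over anti-PD-L1. The higher Ccr7 level with ALPN-202 than with the Fc control was therefore not shown to be particular to ALPN-202. Il12b was at 0.46 (SE 0.61), Socs2 at 0.36 (SE 0.35), Fscn1 at -0.23 (SE 0.21) and Cd200 at -0.12 (SE 0.43) on the same log2 scale. Without anti-PD-L1 2 the Cd200 value turned to 0.61, and 5 of the 7 members had an unadjusted p under 0.05, all higher with ALPN-202 (Ccr7, Ccl22, Cd83, Socs2 and Cd200), where 10.1% of genes tested passed and 8.34% were higher. The median over the members was 0.46, against 0.07 over all genes tested, and 5 of 7 were positive (57.4% of all genes).

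Each member had reads in all 12 tumors except Il12b, with reads in 11. How far the members moved together was measured over the 12 tumors as log2 CPM. Of 28 pairs, 17 had a positive Pearson r, and 2 pairs passed a permutation test (100000 resamples, Benjamini-Hochberg over the 28). Ccr7 and Ccl22 had r = 0.857 (permutation p = 0.00048, adjusted 0.00672) and rho = 0.916 (permutation p = 0.00013, adjusted 0.00364). It was 0.768 without the 2 tumors farthest from the median of Ccr7, 0.909 without both libraries with a length trend, and 0.701 with group means removed (permutation p = 0.00408, adjusted 0.0581). With group means removed no pair passed adjustment.

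Fscn1 and Cd83 ran opposite, with r = -0.872 (permutation p = 0.00041, adjusted 0.00672) and rho = -0.867 (permutation p = 0.00057, adjusted 0.00798). The 2 tumors farthest from the Fscn1 median were Fc control 1 and ALPN-202 4, without which r was -0.634. With group means removed r was -0.899 (permutation p = 0.00415, adjusted 0.0581). Ccr7 also went with Socs2 (r = 0.714, adjusted permutation p = 0.0847) and Cd200 (r = 0.649, adjusted permutation p = 0.0994), and neither pair passed. Ccr7 and Il12b had r = 0.379 over all 12 tumors and 0.83 over the 10 without a length trend. The tumor with no Il12b read, ALPN-202 4, is 1 of the pair left out there. Ccl22 and Ccl17, of the same cluster on chromosome 8, had r = 0.236 (adjusted permutation p = 0.664).

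**Figure D3:**
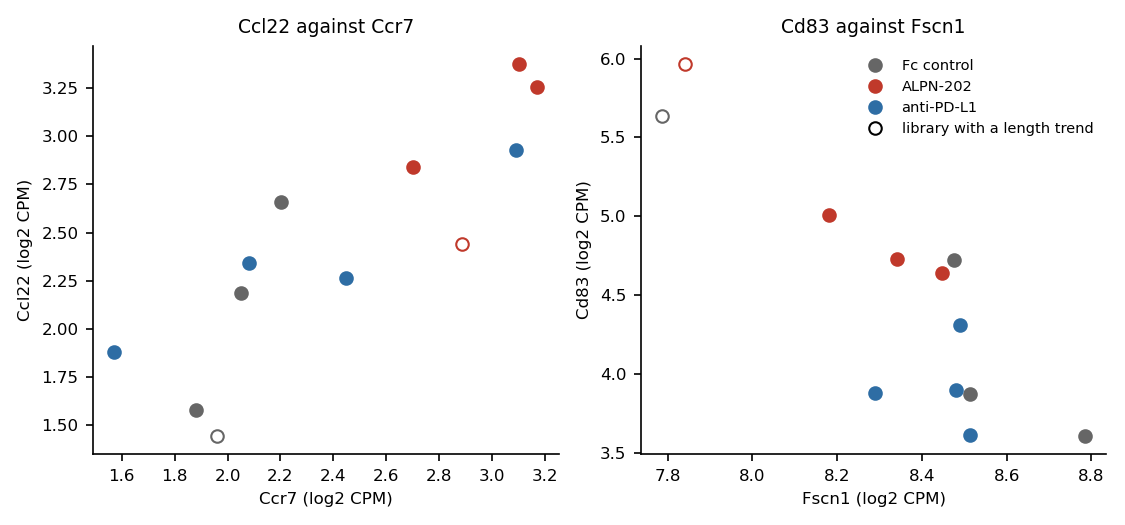
Log2 CPM of Ccl22 against Ccr7 (left) and of Cd83 against Fscn1 (right). Each point is 1 of the 12 tumors, colored by group, and open points are the libraries with a length trend. Ccl22 climbs with Ccr7 across groups (r = 0.857), and the open points sit at the top left for Cd83 against Fscn1 (r = -0.872).

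The genes whose profile over the 12 tumors was most like the mean of the 8 members, as a description with no p, were Wisp2 (r = 0.954), Gda (0.935), Islr (0.931), Cmah (0.92), Pik3r6 (0.916), Gpm6b (0.914), Gpr146 (0.913), Dpp4 (0.912), Cygb (0.911) and Arsi (0.91). The tumors share their library, depth and length profile in these values. Ccr7 was most like Wisp2 (0.956), Fst (0.937) and Fcna (0.933). Ccl22 was most like Cmah (0.951), Cadm3 (0.938) and Cd163 (0.924), the last a macrophage scavenger receptor. Il12b had Gab2 (0.963), Cpne2 (0.95) and Ampd3 (0.948) as its nearest genes. Cd83 had Aagab (0.989), Klra2 (0.983) and Rilpl2 (0.982), and Fscn1 had Fxr2 (0.981), Glis2 (0.977) and Srp68 (0.976), with no gene shared between those lists. Cd200 was most like Enpp5 (0.972), Rasl12 (0.966) and Tspan13 (0.96), Socs2 like Araf (0.912), Hoxb2 (0.904) and Mgp (0.88), and Ccl17 like Dkc1 (0.848), Ccdc41 (0.838) and Pdgfc (0.815). Lamp3 was not among the nearest genes of any member.

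Genes for the receptors and partners of the members were also measured. The list also held GM-CSF and its receptor chains, which are not partners of a member. Of its 22 genes 9 were tested, and 9 of 9 had a positive log2 fold change with ALPN-202 against the Fc control (median 1.12). Of all genes tested, 56.1% were positive. An unadjusted p under 0.05 was reached by 6, among them Csf2rb and Csf2rb2 of the GM-CSF receptor. At that p 7.2% of all genes were higher. Il12rb2, the signalling chain of the IL-12 receptor, was at 7.95 ± 4.82 TPM against 1.71 ± 0.814 (log2 fold change 2.22, SE 0.53, unadjusted p = 0.00121, adjusted p = 0.297 in edgeR). Cd200r1, the inhibitory receptor for CD200, was at 6.40 ± 2.61 TPM against 2.60 ± 0.706 (log2 fold change 1.34, SE 0.29, unadjusted p = 0.000548, adjusted p = 0.283 in edgeR). Cd200r4 and Csf2rb, the latter the common chain of the GM-CSF receptor, were at log2 fold changes of 1.12 and 1.13. With anti-PD-L1 7 of the 9 were positive (median 0.30), as were 47.1% of all genes, and Cd200r1 was at -0.01. Ccr4, the receptor for CCL17 and CCL22, was too low to test, at 0.0867 ± 0.0717 TPM in the Fc control, 0.125 ± 0.0632 with ALPN-202 and 0.202 ± 0.101 with anti-PD-L1. Ccl21a, Ccl21b and Ccl21c, which encode the lymphatic CCR7 ligand, were listed at 0 in all 12 tumors, and these near-identical copies can lose reads in counting.

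Of 36 other genes of the dendritic cell maturation program, 31 were tested. Against the Fc control 23 of 31 had a positive log2 fold change with ALPN-202 (median 0.35), as had 56.1% of all genes tested. At an unadjusted p under 0.05 in edgeR 12 of them were higher and none lower. Over all genes tested 7.2% were higher and 1.98% lower at that p. Cd274, which encodes PD-L1 of the mouse, was at 120 ± 52.1 TPM against 53.4 ± 4.79 (log2 fold change 1.19, SE 0.24, unadjusted p = 0.000323, adjusted p = 0.283 in edgeR). Serpinb6b, a granzyme inhibitor, was at a log2 fold change of 1.74, Il7r at 1.23 and Pdcd1lg2, which encodes PD-L2, at 1.56. These 4 were the genes of the list with the smallest p. Lamp3 was at 0.22 (SE 0.47). Of the 31 tested, 8 had a negative log2 fold change, among them Spib (-0.70, SE 0.68), Nfkb2 (-0.18, SE 0.26), Relb (-0.09, SE 0.21) and Traf1 (-0.03, SE 0.15). With anti-PD-L1 12 of the 31 were positive (median -0.12), where 47.1% of all genes tested were. Cd274, Il7r and Stat4 are also made by many other cells.

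Markers of whole cell classes moved with the same comparison and are given as values. Of all genes tested, 56.1% were positive with ALPN-202 against the Fc control. Conventional dendritic cell genes were positive with ALPN-202 in 16 of 16 tested (median 0.90), their summed TPM being 171.1 to 283.6 in the Fc control, 146.4 to 542.6 with ALPN-202 and 239.3 to 391.8 with anti-PD-L1. Among them Xcr1 and Clec9a, receptors of cross-presenting dendritic cells, were at log2 fold changes of 2.27 and 1.69, and Flt3, the receptor for their growth factor, was at 1.17. Zbtb46, the transcription factor that marks their lineage and is also made by endothelium, was at 0.00 (SE 0.26), against 0.98 and 1.01 for Ccr7 and Ccl22. T cell genes were positive in 11 of 11 (median 1.84, summed TPM 54.9 to 104.9 in the control and 112.2 to 389.9 with ALPN-202), macrophage genes in 9 of 9 (median 0.60) and endothelial genes in 9 of 9 (median 0.79). Langerhans cell genes gave 1 of 2 positive and plasmacytoid dendritic cell genes 4 of 4 (median 0.45), with Siglech and Ccr9 too low to test. Of 8 B cell genes 2 were tested, and of 10 lymph node genes none, their summed TPM being at most 9.19 in any tumor. The part of these cell classes in the Ccr7, Ccl22 and Cd200 values was not tested.

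**Figure D4:**
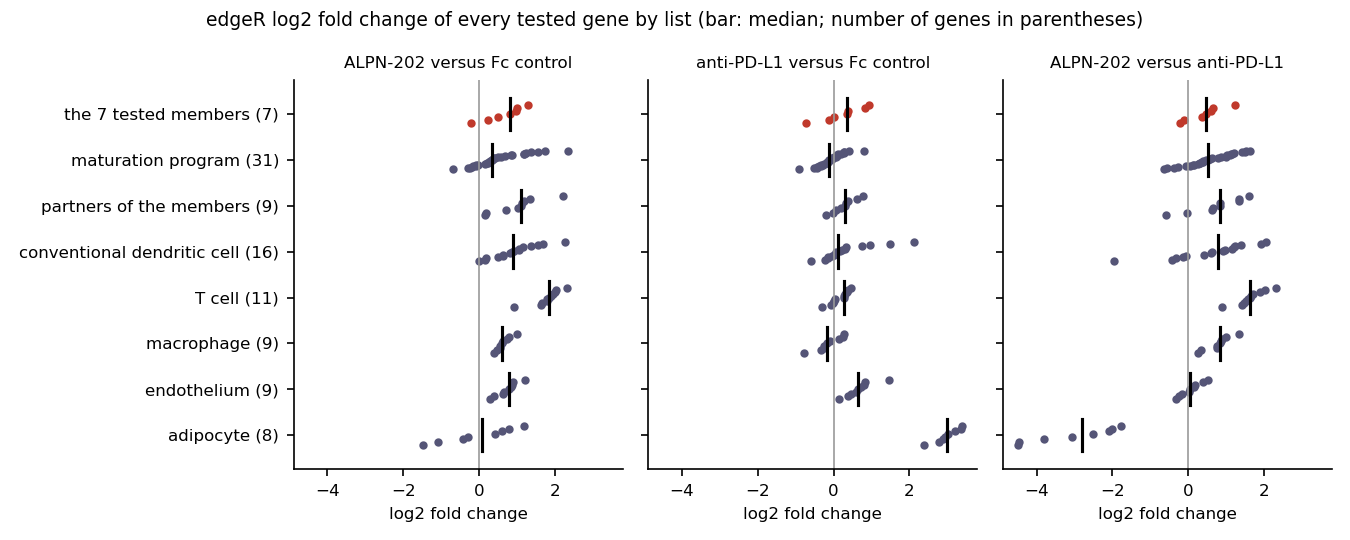
edgeR log2 fold change (horizontal axis) of each tested gene of 8 lists in the 3 comparisons, with the number of genes tested in parentheses. Points are genes and black bars are list medians. With ALPN-202 versus Fc control the members' median of 0.81 lies between that of the maturation program (0.35) and that of the T cell genes (1.84), and with anti-PD-L1 the adipocyte genes stand apart (2.98).

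**Figure D5:**
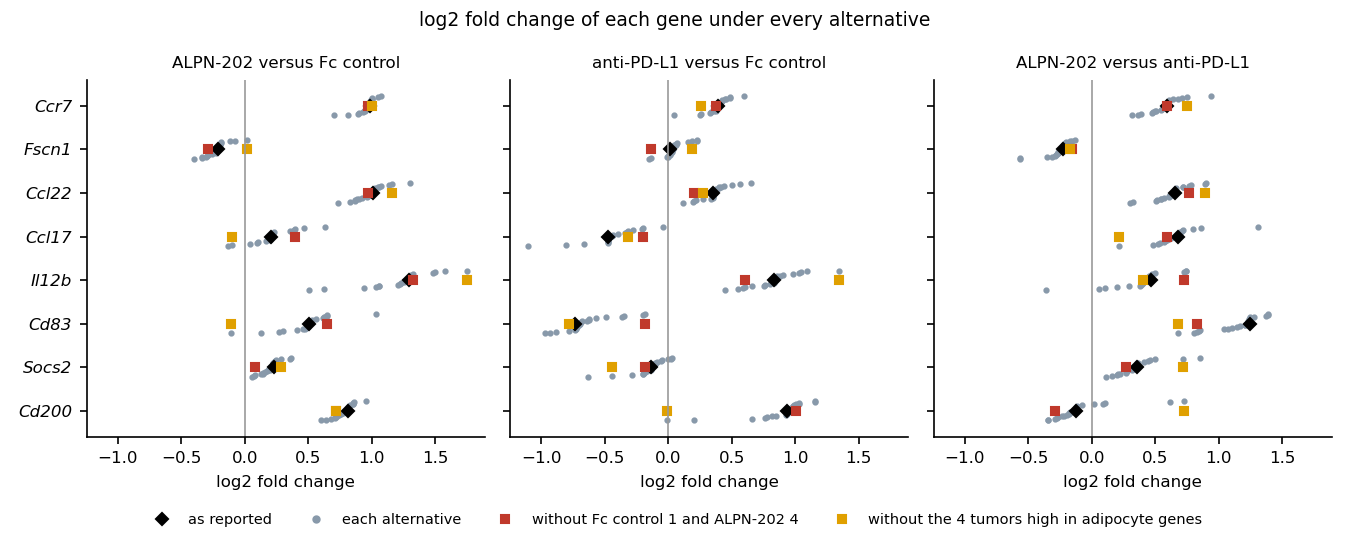
Log2 fold change (horizontal axis) of each gene as reported (diamond) and under each alternative setting (dots), with squares for the fits without the libraries with a length trend or without the 4 tumors high in adipocyte genes. Ccr7 and Ccl22 stay between 0.70 and 1.30 in ALPN-202 versus Fc control, whereas Cd83 and Cd200 shift with the tumors left out.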

How the data were processed

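RNA-seq values of 12 tumors were used, 4 per group, grouped by the treatment in the labels. The authors trimmed and aligned single reads and counted them per gene, and the raw counts are as deposited. Counting was by htseq-count (HTSeq 0.4.1) on NCBIM37. STAR stands in the methods and TopHat 1.4.1 in the submitters' processing notes, and which aligner made the files was not resolved. TPM values were made by the authors from counts and gene lengths and used as deposited. Labels do not say how the tumors of a group were handled, so p-values cover the spread between these tumors.

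Counts were scaled by TMM, filtered with filterByExpr (minimum count 10, minimum total 15) and fitted in 1 edgeR 4.0.16 quasi-likelihood model of all 12 tumors in R 4.3.3 (9 residual degrees of freedom), with Benjamini-Hochberg adjustment over 14142 genes and a threshold of 0.05. Log2 CPM had a prior count of 2. A design with 4 against 4 tumors cannot give an exact two-sided permutation p below 0.0286. Permutation tests used SciPy 1.17.1. The 95% intervals come from the edgeR fit and cover the spread between tumors, and the limit for 0 reads (3 reads) covers counting error only. Of the gene names, 219 stood on more than 1 line, none of them a member.

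The members and lists were chosen with earlier results of these data known. The text names all 8 members, up to 4 genes with the smallest p in ALPN-202 versus Fc control from each list, a set of defining genes whatever their values (Zbtb46, Flt3, Lamp3, Xcr1, Clec9a, Ccr4, Il12a, Cd200r1, Ccl19, Ccl21a, Cd274), and the genes nearest to the members by r. Other genes named (Il23a, Ccl21b, Ccl21c, Csf2rb2, Spib, Traf1, Relb, Nfkb2, Stat4, Siglech and Ccr9) were added after their values were seen. Of the list genes, Ackr4, Ackr2, Adgre1 and Ighd are not analysed here under these names. Langerhans cell, plasmacytoid dendritic cell, B cell, lymph node, keratinocyte and adipocyte lists served as markers of other cells. Keratinocyte genes, 7 of 8 tested, had a median log2 fold change of -0.19 with ALPN-202 and -1.22 with anti-PD-L1 against the Fc control.

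Alternatives were RLE or library-size scaling, genes unfiltered or required to reach 10 counts in all tumors, limma-voom, limma on log2 TPM (limma 3.58.1, pseudocounts 1 and 0.1) or DESeq2 1.42.0 as the test, a block for replicate number, a fit to the groups compared, each tumor left out, removal of the length trend, and omission of the libraries named in the text. Replicate numbers were not taken as pairs. The edgeR test of ALPN-202 versus Fc control was checked on simulated counts with no gene-length trend, and the other tests were not checked that way. Promoter windows are RefSeq sequence on GRCm38.p6.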

Additional observations from a re-analysis of the deposited data

Results flagged for a closer look

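In 24 groups of 4 tumors, 2 held a tumor far from the others on TPM. Chance alone flags about 1 in 20 such groups. Socs2 was at 5.21 TPM in anti-PD-L1 2, against 2.00 to 2.30 in the other 3 tumors of that group. Ccl17 was at 3.92 TPM (9 reads) in anti-PD-L1 3, against 0.953 to 1.31 in the other 3 (2 to 3 reads).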

How the results depend on the processing

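No member passed an adjusted p of 0.05 under any of the 25 alternative fits. Of 582 member log2 fold changes under them, 565 kept their direction and 17 reversed. Genes called with ALPN-202 versus Fc control were 0, and 232 with DESeq2, 1074 without Fc control 1 and ALPN-202 4, and 380 without the 4 tumors high in adipocyte genes, and ranged from 0 to 428 with single tumors left out (428 without ALPN-202 4). For ALPN-202 versus anti-PD-L1 they were 202 with DESeq2 and 748 without Fc control 1 and ALPN-202 4. The cause was not tested. Fits without ALPN-202 4 leave out a shallow library with a length trend and also the tumor of its group lowest in T cell genes. These features were not separated.

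Members with an unadjusted p under 0.05 numbered 2 of 7 in ALPN-202 versus Fc control, where 9.18% of genes tested passed. They numbered 1 with limma on log2(TPM + 1) (6.58% of genes) and 0 with log2(TPM + 0.1) (6.39%). Without the libraries with a length trend they numbered 5 (25.9%), and without the 4 tumors high in adipocyte genes 4 (22.7%). With single tumors left out they numbered 2 to 4 (4 without Fc control 1, where 12.1% passed). With anti-PD-L1 versus Fc control they numbered 0 (2.06% of genes), and 0 to 1 with single tumors left out. They numbered 1 with RLE (2.03%), library size only (2.06%), no filter (2.81%) and the strict filter (1.37%). They also numbered 1 with the length trend removed (2.41%), with DESeq2 (3.12%) and without the 4 tumors (1.1%). With ALPN-202 versus anti-PD-L1 they numbered 1 (9.3% of genes), and 3 with limma-voom (8.82%). There they numbered 2 without the libraries with a length trend (20.9%) and 3 without the 4 tumors (10%). They numbered 1 to 5 in that comparison with single tumors left out (5 without anti-PD-L1 2, where 10.1% passed). Members without overlap on TPM numbered 1 with ALPN-202 versus Fc control (4.43% of genes). On CPM they numbered 2, with no share of all genes counted there. Without the libraries with a length trend they numbered 4 (3 against 3 tumors, where 31.3% of genes did not overlap). Without the 4 tumors they numbered 4 (3 against 3, 29.2%). With single tumors left out they numbered 1 to 4 (4 without ALPN-202 4, 23.3%). Without the 4 tumors they numbered 2 with anti-PD-L1 versus Fc control (2 against 3 tumors, 9.23% of genes) and 6 with ALPN-202 versus anti-PD-L1 (3 against 2, 43.3%), and 0 to 1 and 1 to 2 with single tumors left out. Dunnett's comparison tests mean TPM and not overlap, and was run on the members only. It passed 0 members for either agent against the Fc control and 1 (Cd83) for ALPN-202 versus anti-PD-L1.

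Directions reversed without the 4 tumors for Fscn1 (0.0204), Cd83 (-0.11) and Ccl17 (-0.10) with ALPN-202 versus Fc control, for Cd200 with anti-PD-L1 versus Fc control (-0.00702) and for Cd200 with ALPN-202 versus anti-PD-L1 (0.73). Fscn1 with anti-PD-L1 versus Fc control was -0.14 without the libraries with a length trend, Il12b with ALPN-202 versus anti-PD-L1 was -0.36 on log2(TPM + 0.1), and Cd200 there was 0.10 with limma-voom and 0.0907 with the replicate block. With single tumors left out, Fscn1 (-0.15 to 0.15) and Socs2 (-0.63 to 0.0271) with anti-PD-L1 versus Fc control, Cd200 with ALPN-202 versus anti-PD-L1 (-0.34 to 0.61) and Ccl17 with ALPN-202 versus Fc control (-0.13 to 0.63) reversed.

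The replicate number as a block changed no other direction or count, with 2, 0 and 1 members at an unadjusted p under 0.05. A library of the same number was the nearest for 1 of 12 libraries (same-number r from -0.479 to 0.459). This gave no sign that the numbers pair the samples, and a weak pairing was not excluded. Depth limits Ccl17 and Il12b, with at most 11 and 17 reads in any tumor.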
